A study of Rattus norvegicus with 18 samples.

Results

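The effect of pomegranate skin extract on the liver transcriptome of rats fed a high fat diet was examined on 12 of the 18 arrays of the study. They were chosen by their labels: 6 arrays of the high fat diet alone (HFD) and 6 of the same diet with the extract (HFD+PE). Adult male Sprague Dawley rats, an outbred strain, were fed for 8 weeks and fasted overnight before the liver was taken. The extract was given at 150 mg per kg per day. The remaining 6 arrays, from rats on chow without extract, are given as levels only and entered 1 alternative fit, as a further group that shares the estimate of the spread. The labels describe the HFD livers as fatty and the HFD+PE livers, like those on chow, as normal. They call every array a biological replicate, and they name no cage, litter or day of collection.

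Each value is the log2 signal of a probe set on an Affymetrix array, and a gene is represented by its brightest probe set. HFD 1 and HFD 2 had 0 probe sets over 2 log2 units apart, as had HFD+PE 3 and HFD+PE 4, against 21 to 77 in the other 64 pairs of arrays. Each of these pairs was averaged and counted as 1 animal, named HFD 1-2 and HFD+PE 3-4, which leaves 5 animals per group. Chow 3 and chow 4 also had 0 such probe sets, against 20 to 62 in the other pairs of chow arrays, and were averaged in the same way. The SD of the difference was 0.117 within the HFD pair and 0.260 within the HFD+PE pair, and the latter equals the lowest SD of the other pairs, so the second pair rests on the absence of large differences alone. On arrays HFD+PE 1 and HFD+PE 3 the mean of the hybridization controls bioC, bioD and cre was 13.2 and 12.8, against 11.8 to 12.2 on the other 10 arrays. A further control, bioB, went the other way, at 7.0 and 6.1 against 8.0 to 8.5. Both arrays belong to HFD+PE. They are called the arrays with high hybridization controls below, which refers to bioC, bioD and cre only. The RNA integrity readout, the 3′ minus 5′ signal of actin, ran from 3.1 to 4.0 on HFD arrays and from 3.6 to 4.3 on HFD+PE arrays, and that of GAPDH from 2.1 to 3.2 and from 2.4 to 3.4. Albumin (Alb), transthyretin (Ttr) and the hepatocyte transcription factor Hnf4a, which define the tissue, stood at 14.9 to 15, 14.2 to 14.3 and 12.25 to 12.9 in the 10 animals.

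Hepatocytes make fatty acids from acetyl-CoA by de novo lipogenesis, and sterols by the mevalonate pathway, under control of the SREBP transcription factors, which are held in the endoplasmic reticulum by INSIG proteins when sterols are plentiful. Fatty acids are burned in mitochondria and peroxisomes, largely by enzymes whose genes are targets of PPAR-alpha. Pomegranate skin is rich in ellagitannins, polyphenols that are split into ellagic acid and, by gut bacteria, into urolithins. The comparison asks, per the title of the series, how the extract acts on the fatty liver.

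No gene passed the threshold. With limma over 14217 genes, 0 (0% called) had a Benjamini-Hochberg adjusted p under 0.05, and the smallest was 0.865, for the stem cell transcription factor gene Sall4. Sall4 was lower with the extract, at -0.54, and its mean level was below 6. It read 5.6 and 5.5 on HFD 1 and 2, and 4.8 and 4.7 on HFD+PE 3 and 4. As no gene passed, genes are described below by their levels, and an unadjusted p is given only to rank them. An unadjusted p under 0.05 was found for 359 genes (2.53% called), of which 210 (1.48%) were higher and 149 (1.05%) lower with the extract. Where nothing differs, that threshold lets through a share of 0.05 of genes on average, which is more than was found. In 19 genes (0.134%) the 5 HFD+PE animals did not overlap with the 5 HFD animals, 11 (0.0774%) being higher and 8 (0.0563%) lower. A random split of 10 animals into 5 and 5 separates them completely with a probability of 0.00794, ties aside, which is also above the share found. The median absolute difference was 0.07 log2 units, less than the rounding step of 0.1 of the deposited values, and 91.1% of genes differed by less than 0.2. The median half-width of the 95% interval of a gene's difference was 0.23 log2 units, without adjustment for the number of genes. Differences well below that size were not detectable with 5 animals per group. Much larger ones, such as that of Scd described below, did not pass the adjusted threshold either.

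**Figure D1:**
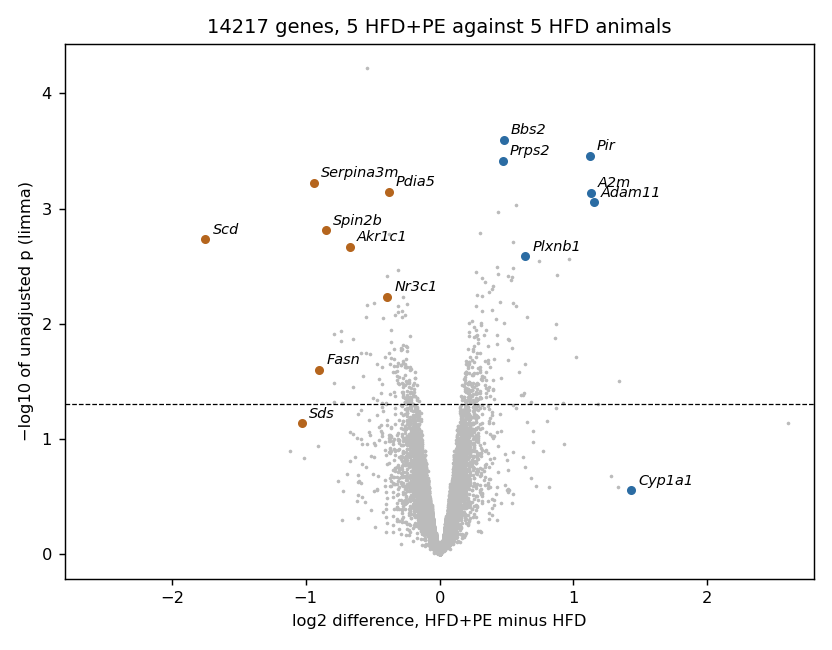
Log2 difference (HFD+PE minus HFD, x axis) against −log10 of the unadjusted limma p (y axis) for 14217 genes; each point is a gene, the dashed line marks the unadjusted threshold of 0.05, and 15 genes named in the text are coloured by direction. Scd lies farthest to the left at -1.75, and no gene passed the adjusted threshold.

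The lowest difference of all genes belonged to Scd, which encodes stearoyl-CoA desaturase, the enzyme that makes monounsaturated fatty acids for triglycerides. Its level was 11.90, 10.7, 11.8, 12.1 and 12.4 in HFD 1-2, 3, 4, 5 and 6, and 9.0, 10.4, 11.65, 9.8 and 9.3 in HFD+PE 1, 2, 3-4, 5 and 6. Of the HFD+PE animals, 4 lay below every HFD animal, and HFD+PE 3-4 lay among the HFD animals, with 11.8 and 11.5 on its arrays. The mean was 11.78 ± 0.65 (SD, n = 5) in HFD and 10.03 ± 1.05 (SD, n = 5) in HFD+PE. This is a difference of -1.75 (SE 0.44, 95% interval -2.71 to -0.79), or 3.36-fold, with an unadjusted p of 0.00184 and a limma adjusted p of 0.992. Without HFD+PE 3-4 the difference was -2.15, and over the omission of each animal in turn it ran from -2.15 to -1.49. Chow animals stood at 11.67 ± 0.44 (SD, n = 5).

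The enzymes that supply Scd with substrate had the same arrangement of animals. Fasn, fatty acid synthase, was at 9.6, 9.1, 9.0, 9.5 and 9.7 in the HFD animals and at 8.3, 8.1, 10.10, 8.1 and 7.8 in the HFD+PE animals, in the order used for Scd. HFD+PE 3-4 was the highest of all 10 animals and the other HFD+PE animals were the lowest. The difference was -0.90 (SE 0.35, unadjusted p 0.0250), and the gene's other probe set gave -1.04. Without HFD+PE 3-4 it was -1.30, with a limma adjusted p of 0.0237, the lowest of the alternatives tried, which reached 1. Acly, ATP citrate lyase, which releases cytosolic acetyl-CoA from citrate, was at 10.7, 10.4, 10.8, 10.8 and 11.1 in HFD and at 9.4, 9.9, 11.55, 9.9 and 9.4 in HFD+PE, a difference of -0.73 (SE 0.33, unadjusted p 0.0490). Here, too, HFD+PE 3-4 was above and the others below all HFD animals.

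Acaca encodes acetyl-CoA carboxylase, which commits acetyl-CoA to fatty acid synthesis. It was at 8.5, 8.4, 8.5, 8.6 and 8.4 in HFD and at 8.1, 8.0, 8.55, 7.7 and 7.6 in HFD+PE, a difference of -0.49 (SE 0.15, unadjusted p 0.00657), while the gene's other probe set gave 0.08. Among the 13 measured genes of the 14 in the de novo lipogenesis list, 10 were lower and 3 higher, with a median of -0.25 against 0.00 over all genes. The median was -0.13 without HFD 6 and -0.14 without HFD+PE 6, and ran down to -0.33 without HFD 4. An unadjusted p under 0.05 was found for 3 of them, all lower (1.05% of all genes), namely Fasn, Acly and Acaca. The citrate carrier Slc25a1 was at -0.25 and Pgd, of the NADPH-producing pentose phosphate pathway, at -0.29. The members above 0 were Tkt at 0.10, Slc13a5 at 0.08 and Me1 at 0.02.

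**Figure D2:**
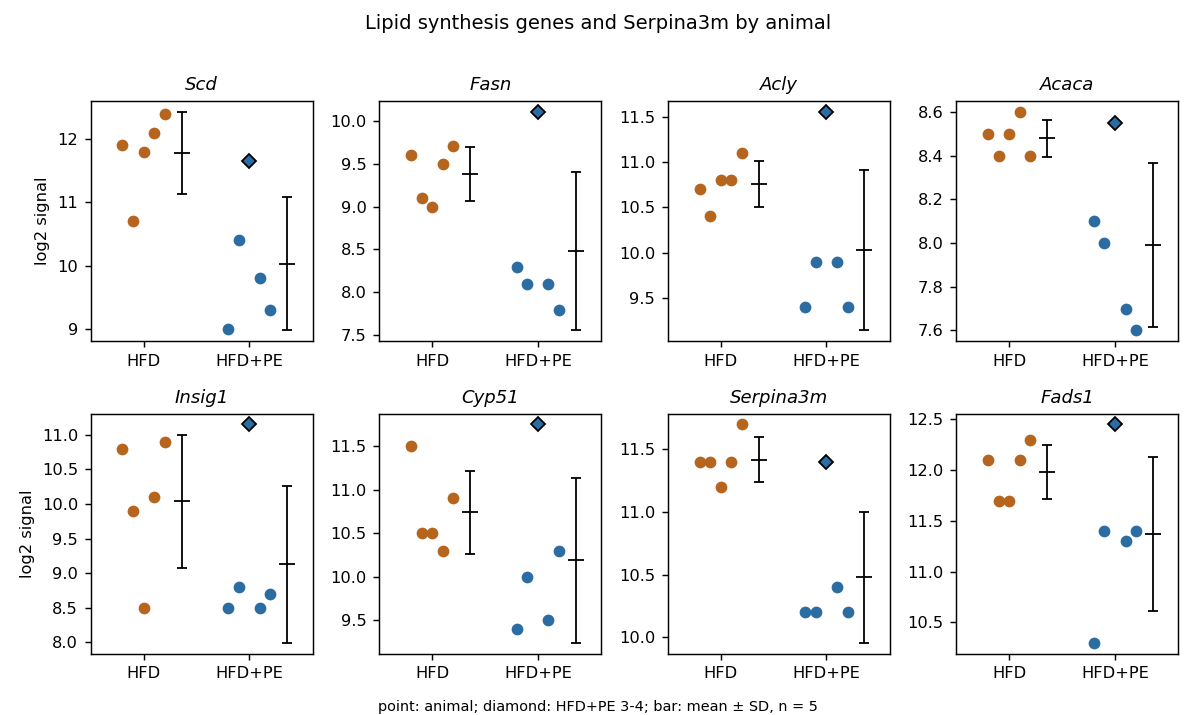
Log2 signal (y axis) of 7 lipid synthesis genes and Serpina3m in HFD (brown) and HFD+PE (blue); each point is 1 animal, the diamond is HFD+PE 3-4, and the bars show the mean ± SD of 5 animals. In Fasn, Acly, Insig1, Cyp51 and Fads1 the diamond is the highest of all 10 animals, and in each panel except those of Insig1 and Cyp51 the other HFD+PE animals lie below every HFD animal.

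Of the desaturases and elongases, 11 of 13 measured genes were lower with the extract and 2 higher, with a median of -0.12. Only Scd, which was lower, had an unadjusted p under 0.05 (1.05% of all genes). The median was -0.19 without HFD+PE 2 and -0.21 without HFD+PE 5, and ran up to -0.08 without HFD 6. Fads1, the delta-5 desaturase of polyunsaturated fatty acids, was at 12.1, 11.7, 11.7, 12.1 and 12.3 in HFD and at 10.3, 11.4, 12.45, 11.3 and 11.4 in HFD+PE, a difference of -0.61 (SE 0.30, unadjusted p 0.0600). Elovl6, which lengthens palmitate to stearate, the substrate of Scd, was at -0.53 (SE 0.28, unadjusted p 0.0859), Elovl5 at -0.29 and the paralogue Scd2 at -0.28.

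Of the 43 lists, sterol synthesis had the widest range between animals. Of 19 measured genes of the cholesterol synthesis and uptake list, 18 were lower and 1, Ggps1, higher, with a median of -0.30, the lowest of the 43 lists. None had an unadjusted p under 0.05, and in 19 of 19 the SD was larger in HFD+PE than in HFD, against 6326 of 14217 genes (44.5%). The median distance of the list from the HFD mean was 0.50, -0.29, -0.24, -0.24 and 0.16 in HFD 1-2, 3, 4, 5 and 6, and -0.54, -0.50, 0.90, -0.77 and -0.38 in HFD+PE 1, 2, 3-4, 5 and 6. HFD+PE 3-4 was thus the highest and the other HFD+PE animals the 4 lowest. Without HFD+PE 3-4 the list median was -0.62, with 18 genes lower, and the SD was larger in HFD+PE in 5 of 19. The list median was -0.19 without HFD 1-2 and -0.18 without HFD+PE 5.

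Cyp51, the sterol 14-demethylase, was at 11.5, 10.5, 10.5, 10.3 and 10.9 in HFD and at 9.4, 10, 11.75, 9.5 and 10.3 in HFD+PE (-0.55, SE 0.38, unadjusted p 0.176). Acat2, which condenses acetyl-CoA at the start of the pathway, was at -0.52, the isomerase Ebp at -0.30, mevalonate kinase (Mvk) at -0.23 and the desaturase Sc5d at -0.15, both with 1 other probe set of opposite sign. Chow animals stood at a list median of 0.54 against the HFD mean. The de novo lipogenesis list had distances of 0.08, -0.16, -0.20, -0.04 and 0.32 in HFD and -0.44, -0.24, 0.41, -0.50 and -0.32 in HFD+PE, with a chow median of 0.16, so the order of animals was much the same. In that list the SD was larger in HFD+PE in 12 of 13 genes with all animals and in 6 of 13 without HFD+PE 3-4.

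Insig1, the sterol sensor that holds SREBP back and is itself an SREBP target, was at 10.8, 9.9, 8.5, 10.1 and 10.9 in HFD and at 8.5, 8.8, 11.15, 8.5 and 8.7 in HFD+PE. The difference was -0.91 (SE 0.54, unadjusted p 0.114), and -1.42 without HFD+PE 3-4. HFD 4 was as low as the lowest HFD+PE animals, so the groups overlapped at both ends. Among the 20 measured regulators of the SREBP, ChREBP and LXR pathways, 10 were lower and 10 higher, with a median of 0.005. Srebf1 was at -0.21 (SE 0.29), Mlxipl, which encodes ChREBP, at -0.15 (SE 0.14), and Scap, the SREBP escort protein, at 0.23 (SE 0.10, unadjusted p 0.0467). Ppargc1b, a coactivator of lipogenic and mitochondrial genes, was at 7.85, 7.9, 8.0, 7.7 and 7.7 in HFD and at 7.4, 7.7, 7.1, 7.5 and 7.5 in HFD+PE (-0.39, SE 0.11, unadjusted p 0.00383), HFD+PE 2 reaching the lowest HFD animals.

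The promoters of these genes were read from RefSeq on build GRCr8, as the 250 bases before the annotated start, on the strand of the gene. The CCAAT box (CCAAT on either strand), the site of NF-Y, was found in 12 of the 15 cholesterol list promoters that the table holds (80%) and in 8 of 11 of the lipogenesis list (72.7%), against 34.3% of all 27457 promoters. It was in 6 of 12 promoters of the desaturation and elongation list (50%) and in 8 of 17 of the regulators (47.1%). The E-box CACGTG was in 3 of 17 promoters of the regulators (17.6%), in 1 of 15 of the cholesterol list (6.67%), in 2 of 12 of the desaturation and elongation list (16.7%), in 0 of 11 of the lipogenesis list and in 5.79% of all. The sterol element TCACNCCAC was found in none of the lipid lists and in 0.976% of all promoters, which says only that these letters are not in this window. The promoter of Scd held no CCAAT box, E-box CACGTG or sterol element and is not shown. Insig1 (chr4:8057770-8058019, minus strand) is shown as the sterol sensor described above, and Fdps (chr2:176804817-176805066, minus strand), of the sterol pathway, for its paired CCAAT boxes. Capitals mark CCAAT boxes (ATTGG where on the other strand) and the E-box CACGTG.
Insig1: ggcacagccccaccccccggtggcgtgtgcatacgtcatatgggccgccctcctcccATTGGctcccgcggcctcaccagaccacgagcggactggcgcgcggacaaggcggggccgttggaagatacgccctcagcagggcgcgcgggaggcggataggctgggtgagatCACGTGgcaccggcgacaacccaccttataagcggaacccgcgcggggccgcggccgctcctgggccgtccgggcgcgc
Fdps: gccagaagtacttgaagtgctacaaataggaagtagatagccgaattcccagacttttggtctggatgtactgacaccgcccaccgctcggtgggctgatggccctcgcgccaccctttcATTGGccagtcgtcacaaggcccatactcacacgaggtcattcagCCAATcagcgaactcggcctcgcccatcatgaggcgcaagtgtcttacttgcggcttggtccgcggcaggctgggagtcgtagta

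Triglyceride synthesis and lipid droplet genes lay around 0 as a group. Of 31 measured genes, 19 were lower and 11 higher, with a median of -0.03. Ces1d, a carboxylesterase of hepatic lipid hydrolysis, was at 0.51 (SE 0.18, unadjusted p 0.0136), Agpat1, an acyltransferase of phosphatidic acid synthesis, at 0.22, Mgll, monoglyceride lipase, at 0.21, and the droplet coat protein gene Plin3 at -0.49 (SE 0.28). Lipoprotein genes had a median of 0.03, with 13 of 23 higher.

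Fatty acid oxidation genes were mostly slightly higher. In the mitochondrial list 19 of 22 were higher and 3 lower, with a median of 0.085 and no unadjusted p under 0.05. Crat, carnitine acetyltransferase, was at 0.38 (SE 0.21), Decr1 at 0.27, Hadhb at 0.22, and Cpt1a, which controls fatty acid entry into mitochondria, at 0.15 (SE 0.11). By animal the list ran from -0.24 to 0.28 in HFD and from -0.17 to 0.17 in HFD+PE, so every HFD+PE animal lay within the HFD range. Leaving out HFD 3 gave a median of 0.03, and leaving out either HFD 6 or HFD+PE 1 gave 0.14.

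In the peroxisomal list 14 of 18 genes were higher, with a median of 0.055, and 2 of them had an unadjusted p under 0.05 (1.48% of all genes). These were Pex11a, of peroxisome division, at 0.36 (SE 0.13, unadjusted p 0.0157) and Decr2 at 0.18. Ech1 was at 0.32 and Ehhadh at 0.28. Among ketogenesis genes and PPAR-alpha targets, 17 of 24 were higher, with a median of 0.075, which was 0.004 without HFD+PE 5 and 0.14 without HFD+PE 1. Vnn1, pantetheinase, was at 8.95, 8.6, 9.3, 8.8 and 9.0 in HFD and at 9.3, 9.9, 9.3, 9.6 and 9.2 in HFD+PE (0.53, SE 0.15, unadjusted p 0.00417). Of the HFD+PE animals 3 were at or below the level of HFD 4, the highest HFD animal. Bdh1, a ketone body dehydrogenase, was at 0.29 (SE 0.10, unadjusted p 0.0148), the hormone gene Fgf21 at 0.70 (SE 0.40) and Ppara itself at 0.11.

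Respiratory chain genes differed little. In complex I, 20 of 34 genes were lower and 12 higher, with a median of -0.035 and a range of -0.15 to 0.09. In complexes II to V, 26 of 34 were lower and 7 higher, with a median of -0.025 and a range of -0.17 to 0.12. None of the 68 genes had an unadjusted p under 0.05. The TCA cycle list had a median of -0.01. In the list of mitochondrial biogenesis, dynamics and mitophagy 18 of 29 were higher, with a median of 0.05, and Ppargc1b, described above, was the only one with an unadjusted p under 0.05 (1.05% of all genes were lower at that threshold). Tfam was at 0.04, Bnip3 at 0.20 and Ppargc1a, close to the lower end of the signal range at 4.0 to 5.4, at 0.24 (SE 0.21). Ucp2 was at 0.11 in a list of 11 uncoupling proteins and carriers with a median of -0.02.

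**Figure D3:**
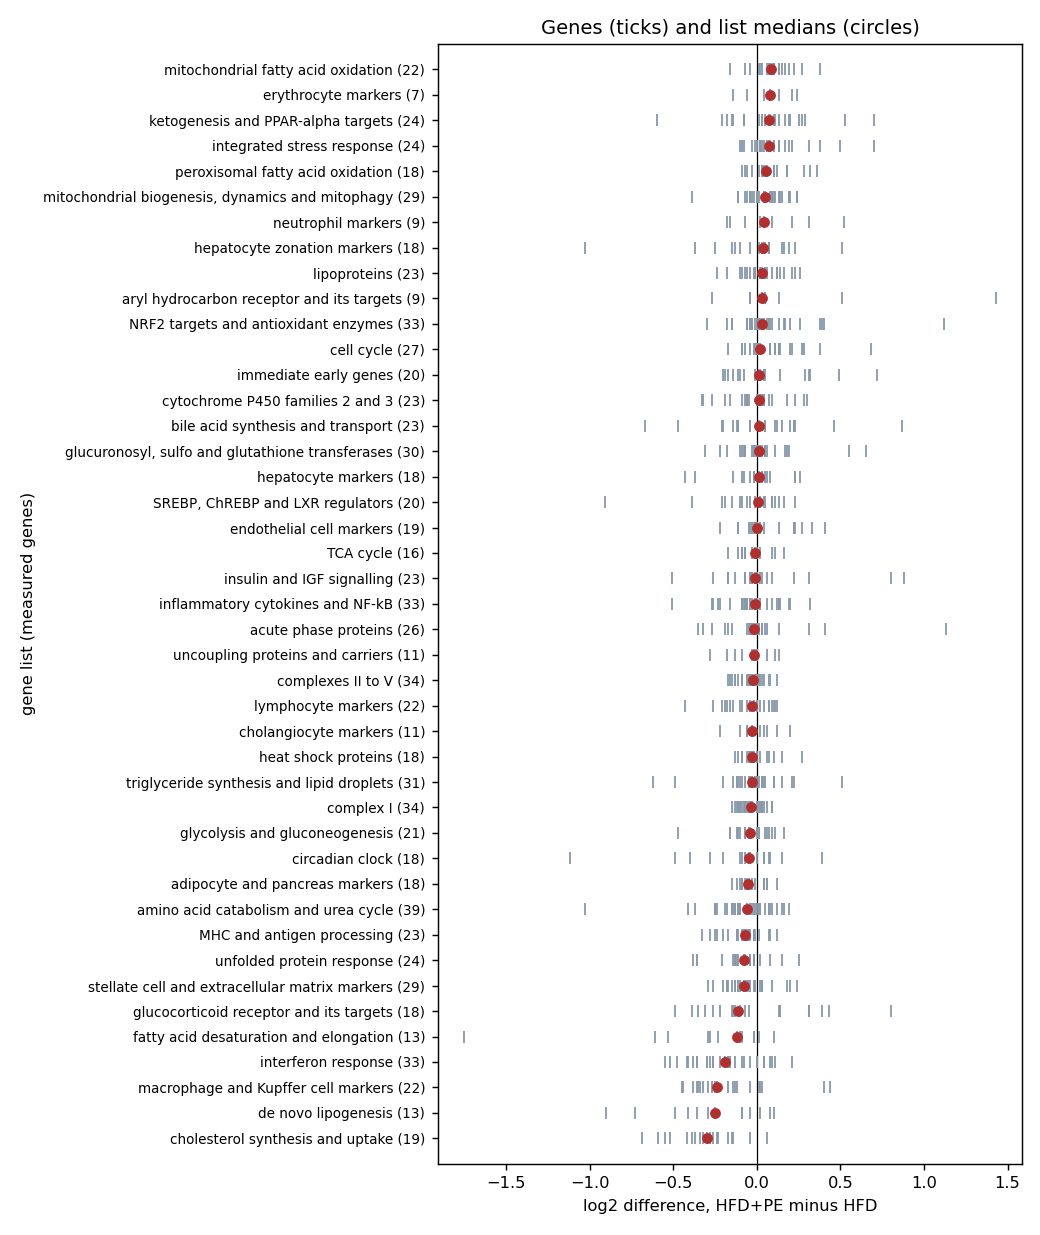
Log2 difference between HFD+PE and HFD (x axis) for the genes of each of 43 lists (y axis, number of measured genes in brackets); grey ticks are genes and red circles list medians. Medians ran from -0.30 for cholesterol synthesis and uptake to 0.085 for mitochondrial fatty acid oxidation, and no gene passed the adjusted threshold.

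Antioxidant and NRF2 target genes, a list relevant to a polyphenol extract, were higher in 19 and lower in 13 of 33, with a median of 0.03. An unadjusted p under 0.05 was found for 2, both higher (1.48% of all genes). Pir encodes pirin, an iron-binding nuclear protein and NRF2 target, and stood at 5.6, 5.8, 5.0, 4.9 and 4.9 in HFD and at 6.0, 5.8, 6.6, 6.9 and 6.5 in HFD+PE. Its difference of 1.12 (SE 0.23, unadjusted p 0.000348) was among the largest, with HFD+PE 2 level with HFD 3 and the others above all HFD animals. Gss, glutathione synthetase, was at 8.5, 8.4, 8.3, 8.3 and 8.1 in HFD and at 8.4, 8.5, 8.75, 8.9 and 9.0 in HFD+PE (0.39, SE 0.12, unadjusted p 0.00751).

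Other genes of that list had smaller group differences than Pir, and those named next had no unadjusted p under 0.05. Srxn1, sulfiredoxin, was at 0.26 (SE 0.14), Gclc, of glutathione synthesis, at 0.40 (SE 0.22), the quinone reductase Nqo1 at 0.13 (SE 0.44), heme oxygenase Hmox1 at 0.06 and Nfe2l2, which encodes NRF2, at 0.20 (SE 0.18). The antioxidant element TGACNNNGC, on either strand, was found in 6 of 29 promoters of the list (20.7%) and in 10.2% of all. It was also in 4 of 15 promoters of the cholesterol list (26.7%), 3 of 12 of the desaturation and elongation list (25%) and 2 of 11 of the lipogenesis list (18.2%). The promoter of Pir (chrX:33851050-33851299, minus strand) is shown because this gene had the smallest unadjusted p of the list. Capitals mark its 2 matches, both on the other strand.
Pir: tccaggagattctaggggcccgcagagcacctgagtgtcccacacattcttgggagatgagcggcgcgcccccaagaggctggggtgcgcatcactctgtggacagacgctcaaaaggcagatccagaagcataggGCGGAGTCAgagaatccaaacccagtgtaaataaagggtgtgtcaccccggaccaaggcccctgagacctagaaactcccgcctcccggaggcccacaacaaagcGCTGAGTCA

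A single animal stood apart in targets of the aryl hydrocarbon receptor. Cyp1a1, the receptor's classical target, was at 5.4, 5.4, 5.6, 5.1 and 5.2 in HFD and at 4.8, 13.0, 6.05, 5.2 and 4.8 in HFD+PE. HFD+PE 2 was at 13.0, and the arrays of HFD+PE 3-4 read 5.1 and 7.0. Cyp1a2 was at 13.7 in HFD+PE 2 and at 11.3 to 11.9 in the other 9 animals. The difference was 1.43 (SE 1.26, unadjusted p 0.278) for Cyp1a1 and 0.51 (SE 0.36) for Cyp1a2. Nqo1, also a target, was at 9.3 in HFD+PE 2 and between 6.6 and 8.1 elsewhere. Cyp1b1 and Tiparp, named after their values were seen, were at 4.8 and 7.8 in HFD+PE 2, within the 4.7 to 5.2 and 7.6 to 8.2 of the other animals. The 9 measured genes of the list had a median of 0.03. Cytochromes P450 of families 2 and 3 had a median of 0.01, with Cyp2j4 at 0.30 (SE 0.11, unadjusted p 0.0179).

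The smallest unadjusted p among lower genes at a mean level of 6 or more was that of Serpina3m, a serine protease inhibitor of the hepatic secretome. It was at 11.40, 11.4, 11.2, 11.4 and 11.7 in HFD and at 10.2, 10.2, 11.40, 10.4 and 10.2 in HFD+PE. The difference was -0.94 (SE 0.21, unadjusted p 0.000599), 4 HFD+PE animals lying at least 0.8 below all HFD animals and HFD+PE 3-4 among them. Without HFD+PE 3-4 it was -1.17, with a limma adjusted p of 0.00217, the lowest of the alternatives tried, which reached 1.

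Pdia5, a disulfide isomerase of the endoplasmic reticulum, was at 9.9, 10, 9.7, 9.9 and 10 in HFD and at 9.6, 9.4, 9.6, 9.4 and 9.6 in HFD+PE, without overlap (-0.38, SE 0.09, unadjusted p 0.000713). Ctsh, cathepsin H, was at 11.2 in each HFD animal and at 11, 10.6, 10.95, 11 and 10.9 in HFD+PE, also without overlap (-0.31, SE 0.09). The other genes at level 6 or more that did not overlap and were lower were Mrpl4 at -0.18 and Snx24 at -0.15. Before the pairs were averaged, Pdia5 read 9.7 on HFD+PE 4, level with HFD 4. Snx24 read 9.0 on HFD+PE 4, as on HFD 1 and HFD 2. Nr3c1, the glucocorticoid receptor, was at 9.5, 9.6, 9.5, 9.8 and 9.8 in HFD and at 8.9, 9.3, 9.15, 9.5 and 9.4 in HFD+PE (-0.39, SE 0.12, unadjusted p 0.00580), while its other probe set gave -0.05. Chow animals were at 9.21 ± 0.11 (SD, n = 5). Akr1c1, an aldo-keto reductase, was at -0.67 (SE 0.17, unadjusted p 0.00214), Spin2b at -0.85 (SE 0.21), and Dmgdh, of choline degradation, at -0.27 (SE 0.08).

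Among higher genes, Bbs2, a subunit of the BBSome of primary cilia, was at 7.05, 6.8, 7.1, 7.1 and 7.0 in HFD and at 7.6, 7.4, 7.45, 7.7 and 7.3 in HFD+PE (0.48, SE 0.10, unadjusted p 0.000254). Prps2, a phosphoribosyl pyrophosphate synthetase of nucleotide synthesis, was at 7.4, 7.4, 7.1, 7.3 and 7.4 in HFD and at 7.8, 7.6, 7.65, 7.9 and 8.0 in HFD+PE (0.47, SE 0.10, unadjusted p 0.000385). Neither overlapped, and the other probe sets of Prps2 gave 0.10 to 0.50. Nup85, of the nuclear pore, was at 0.30 (SE 0.08) without overlap. The further genes at this level without overlap were Smagp at 0.31, Exosc4, of the RNA exosome, at 0.28, Cdc42bpb at 0.27, Gfm2, a mitochondrial translation factor, at 0.22, and Nup93 at 0.19. Before the pairs were averaged, Gfm2 read 6.0 on HFD+PE 3, level with the highest HFD animals. Nup93 read 6.2 on HFD 2, level with the lowest HFD+PE animals.

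A2m, the alpha-2-macroglobulin that in rats is a major acute phase protein, was at 7.20, 6.7, 6.8, 6.9 and 6.5 in HFD and at 6.9, 7.8, 8.45, 8.4 and 8.2 in HFD+PE. The difference was 1.13 (SE 0.25, unadjusted p 0.000730), HFD+PE 1 being within the HFD range and the others above it. Without HFD+PE 1 the difference was 1.39, with a limma adjusted p of 0.0297. HFD+PE 1 is one of the 2 arrays with high hybridization controls. On the other, HFD+PE 3, A2m read 8.4, against 8.5 on HFD+PE 4. The part of the controls in the A2m levels was not tested. Without both arrays the difference was 1.41, with a limma adjusted p of 0.0327. Over the alternatives tried, the adjusted p ran from 0.0297 to 1. The other 25 genes of the acute phase list had a median of -0.02, with 9 higher and 14 lower.

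Adam11 was at 6.5, 7.0, 6.8, 7.0 and 5.8 in HFD and at 7.7, 6.9, 8.05, 8.0 and 8.2 in HFD+PE (1.15, SE 0.27, unadjusted p 0.000886). HFD+PE 2 was the exception there. Pdzph1 was at 0.97 (SE 0.26), Plxnb1, a semaphorin receptor, at 0.64 (SE 0.17) with other probe sets at -0.18 and 0.20, Colq at 0.55 (SE 0.14), Nat8 at 0.55 (SE 0.15) and Pkdcc at 0.43 (SE 0.12). These genes were those with the smallest unadjusted p at a mean level of 6 or more, and none passed the adjusted threshold.

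Several of the largest differences came from genes that varied widely within a group, and the following were named after their values were seen. Ugt2b, a UDP-glucuronosyltransferase, had the highest difference of all, 2.60 (SE 1.33, unadjusted p 0.0724). It was at 5.90 and 7.1 in HFD 1-2 and HFD 6, at 13.2 in each of the other HFD animals, and at 12.70 to 13.4 in the HFD+PE animals. Serpina7, thyroxine-binding globulin, was at 6.3 to 8.4 in HFD and at 8.4, 6.4, 8.65, 9.0 and 9.8 in HFD+PE (1.34, SE 0.55). Pxmp4, a peroxisomal membrane protein gene, was at 7.7 to 11 in HFD and at 9.9 to 11.2 in HFD+PE (1.18, SE 0.54). Inmt, indolethylamine N-methyltransferase, was at 5.1 in HFD 6 and at 7.0 to 7.2 in the other HFD animals, and at 6.8 in HFD+PE 6 and at 7.9 to 8.0 in the other HFD+PE animals (1.02, SE 0.38). The groups overlapped in each of these genes, in Inmt through HFD+PE 6 alone.

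Bile acid and sterol transport genes had a median of 0.01, with 12 of 23 higher. Abcg5, a subunit of the exporter of sterols into bile, was at 6.15, 5.5, 5.5, 4.8 and 5.8 in HFD and at 5.5, 6.4, 7.1, 6.8 and 6.3 in HFD+PE (0.87, SE 0.29, unadjusted p 0.0100), HFD+PE 1 alone lying within the HFD range. Abcc2, a canalicular conjugate pump, was at -0.47 (SE 0.18, unadjusted p 0.0224), and Cyp7a1, the rate-limiting enzyme of bile acid synthesis, at -0.11 (SE 0.49).

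Amino acid catabolism and urea cycle genes were lower in 25 and higher in 13 of 39, with a median of -0.06. Ass1, argininosuccinate synthase, was at 12.6 in every HFD animal and at 12.6, 12.4, 12.45, 11.8 and 11.9 in HFD+PE (-0.37, SE 0.14, unadjusted p 0.0221). Gls2, liver glutaminase, was at -0.25 (SE 0.10), Aass, of lysine degradation, at -0.41 (SE 0.23), and Sds, serine dehydratase, at -1.03 (SE 0.53). Of the unfolded protein response list, 20 of 24 were lower, with a median of -0.075, and 2 of these had an unadjusted p under 0.05 (1.05% of all genes), Pdia5 and the chaperone gene Hyou1 at -0.36 (SE 0.13, unadjusted p 0.0199). Hsp90b1 was at -0.21. The list median by animal was lowest in HFD+PE 6 at -0.26, HFD 4 at -0.22 and HFD+PE 5 at -0.20, so the groups overlapped. In the insulin and IGF list 13 of 23 measured genes were lower and 8 higher, with a median of -0.01. Of these, 2 had an unadjusted p under 0.05, both higher (1.48% of all genes). One was Igfbp2, a binding protein of insulin-like growth factors, at 0.88 (SE 0.25, unadjusted p 0.00376). Igfbp1 was at 0.80 (SE 0.40).

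Interferon-stimulated genes were mostly lower. Of 33 measured genes of 41 listed, 25 were lower and 6 higher, with a median of -0.19, and 6 had an unadjusted p under 0.05, all lower (1.05% of all genes). Irf7, the transcription factor that amplifies the interferon response, was at 8.7, 8.6, 7.8, 8.3 and 8.3 in HFD and at 7.5, 7.6, 8.15, 7.4 and 8.3 in HFD+PE (-0.55, SE 0.20, unadjusted p 0.0178). HFD+PE 1, 2 and 5 were below all HFD animals. Bst2, tetherin, was at 12.25, 12.0, 11.7, 11.6 and 11.7 in HFD and at 11.4, 11.6, 11.35, 11.4 and 11.7 in HFD+PE (-0.36, SE 0.13, unadjusted p 0.0143). HFD+PE 2 and 6 were level with the lower HFD animals for Bst2.

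Oasl, of the 2′-5′ oligoadenylate synthetase family, was at -0.42 (SE 0.14, unadjusted p 0.00894), Ifi44l at -0.52 (SE 0.19), the ubiquitin-like modifier Isg15 at -0.41 (SE 0.15) and Ifi44 at -0.30 (SE 0.12). By animal the list median ran from -0.34 (HFD 4) to 0.30 (HFD 1-2) in HFD and from -0.36 to 0.01 in HFD+PE, so that the ranges overlapped, and chow animals had a median of 0.20. Over the omission of single animals the list median ran from -0.28 to -0.13. MHC and antigen processing genes were lower in 19 of 23, with a median of -0.07.

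In the same RefSeq promoters the interferon element (GAAA, any 2 bases and GAAA again), on either strand, was found in 16 of 26 promoters of the interferon list (61.5%) and in 3.29% of all. Bst2 (chr16:18254968-18255217, minus strand) and Irf7 (chr1:205800024-205800273, minus strand) are shown as the effector and the regulator among the genes with an unadjusted p under 0.05. Capitals mark the element, which occurs in 2 overlapping copies in Bst2 and on the other strand in Irf7.
Bst2: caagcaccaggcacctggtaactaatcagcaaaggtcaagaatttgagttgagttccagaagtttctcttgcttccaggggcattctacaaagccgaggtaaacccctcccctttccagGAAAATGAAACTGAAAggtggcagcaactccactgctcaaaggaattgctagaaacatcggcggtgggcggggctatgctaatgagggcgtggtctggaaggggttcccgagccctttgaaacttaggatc
Irf7: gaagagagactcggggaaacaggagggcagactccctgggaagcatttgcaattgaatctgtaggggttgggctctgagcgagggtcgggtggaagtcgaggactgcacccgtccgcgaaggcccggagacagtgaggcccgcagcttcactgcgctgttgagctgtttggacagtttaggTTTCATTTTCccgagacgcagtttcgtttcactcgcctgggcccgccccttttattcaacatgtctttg

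Macrophage and Kupffer cell markers were lower alongside. In bulk liver RNA, fewer cells of a type and less RNA per cell cannot be told apart. Of 22 measured markers of 27 listed, 17 were lower and 5 higher, with a median of -0.24 and none with an unadjusted p under 0.05. Leaving out HFD 1-2 or HFD+PE 5 gave a median of -0.14, and leaving out HFD+PE 1 gave -0.16. Clec4f, a Kupffer cell lectin, was at 11.15, 10.6, 10.1, 10.8 and 10 in HFD and at 9.5, 10.5, 10.3, 9.8 and 10.3 in HFD+PE (-0.45, SE 0.24). The growth factor receptor gene Csf1r was at -0.36 (SE 0.20), the complement subunit C1qc at -0.38 (SE 0.21), Cd68 at -0.34 (SE 0.20), Gpnmb at -0.44 (SE 0.24), Adgre1 at -0.14 and Cd14 at 0.40 (SE 0.22).

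By animal the macrophage list ran from -0.26 to 0.40 in HFD and was -0.59, 0.10, -0.07, -0.53 and 0.09 in HFD+PE 1, 2, 3-4, 5 and 6. HFD+PE 1 and 5 were below all HFD animals, and both were also low in the interferon list, at -0.30 and -0.22, whereas HFD+PE 2 was at -0.36 there. The part of these markers in the interferon result was not tested. With the level of the hybridization controls as a covariate the macrophage median was -0.075.

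**Figure D4:**
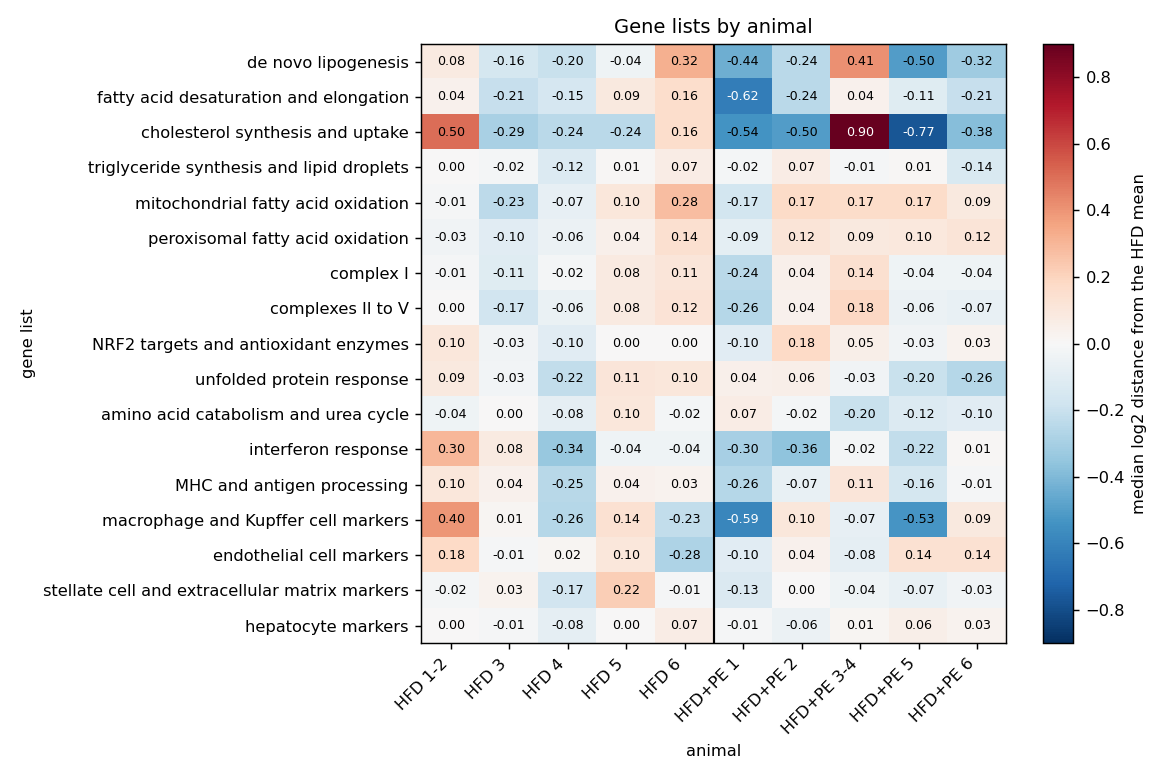
Median log2 distance of the genes of 17 lists (y axis) from their mean over the HFD animals, in each of 10 animals (x axis; the line separates HFD from HFD+PE); red is higher and blue lower. HFD+PE 3-4 stands at 0.90 in the cholesterol list, where the other HFD+PE animals are at -0.38 to -0.77.

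The medians of the other cell type lists were smaller in size. Neutrophil markers had a median of 0.04, with 6 of 9 higher and 3 lower. An unadjusted p under 0.05 was reached by 3, all higher (1.48% of all genes) and all below a level of 6. Among them were S100a9 at 0.52 (SE 0.18) and S100a8 at 0.31 (SE 0.13). S100a8 read only 3.1 to 3.4 on arrays HFD 1, HFD 2, HFD+PE 3 and HFD+PE 4, where the lowest signal of all was 2.2. Endothelial markers had a median of 0.00 and included Stab1 at 0.27 (SE 0.11, unadjusted p 0.0331) and Stab2 at 0.33 (SE 0.15). Stellate cell and matrix markers were lower in 21 of 29, with a median of -0.08. Lymphocyte markers had a median of -0.03, cholangiocyte markers of -0.03, erythrocyte markers of 0.08, adipocyte and pancreas markers of -0.055 and hepatocyte markers of 0.01. Hepatocyte zonation markers had a median of 0.035 and ran from -1.03, for Sds, to 0.51, and 2 of 18 had an unadjusted p under 0.05, both lower (1.05% of all genes), Ass1 and Gls2.

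The clock genes Bmal1, Usp2 and Per1 divided the HFD+PE animals. Bmal1, the positive arm of the circadian oscillator, was at 7.05, 5.3, 5.2, 6.2 and 5.8 in HFD and at 5.3, 5.2, 7.1, 7.1 and 6.8 in HFD+PE. Usp2, a deubiquitinase with circadian expression, was at 6.75, 8.8, 7.9, 8.5 and 8.2 in HFD and at 8.2, 9.3, 5.85, 5.5 and 5.7 in HFD+PE, and Per1, of the negative arm, was at 8.1 to 8.8 in HFD and at 8.8, 8.8, 7.2, 7.4 and 7.4 in HFD+PE. HFD+PE 3-4, 5 and 6 were thus low in Usp2 and Per1 and high in Bmal1, while HFD+PE 1 and 2 lay near HFD 3 to 6, and HFD 1-2 was high in Bmal1 and the lowest HFD animal in Usp2.

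The group differences were 0.39 (SE 0.44) for Bmal1, -1.12 (SE 0.68) for Usp2 and -0.49 (SE 0.31) for Per1, and none of the 18 clock genes measured had an unadjusted p under 0.05. Npas2, Dbp, Per2 and Per3, of the same oscillator and its output, were at 0.15, -0.20, -0.40 and -0.10, and other probe sets of Per2 and Per3 gave 0.06 and 0.01. Npas2 was at 6.5 and 5.6 in HFD+PE 1 and 2 and at 7.6 to 8.3 in the other HFD+PE animals. Dbp was at 9.2 and 9.5 against 7.2 to 7.85 in the same animals. For Ccnd1, cyclin D1, HFD+PE 3-4, 5 and 6 were the highest of all 10 animals. They were at 9.75, 10 and 9.6, against 7.9 to 8.9 in all others. The same held for Igfbp2, at 7.45, 7.1 and 7.5 against 5.6 to 6.65, and for A2m, at 8.45, 8.4 and 8.2 against 6.5 to 7.8. Hamp, hepcidin, was at 13.25, 13.8 and 13.3 in HFD+PE 3-4, 5 and 6 and at 12.3 to 12.9 in all others. Npas2, Ccnd1 and Hamp were chosen after their values were seen. In Pir, Gss, Adam11 and Plxnb1, described above, HFD+PE 3-4, 5 and 6 were also the highest of all 10 animals. Scd was not divided in this way, with HFD+PE 1 and 2 at 9.0 and 10.4 and HFD+PE 5 and 6 at 9.8 and 9.3, and neither was Fasn. The part of the clock state in any of these differences was not tested.

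**Figure D5:**
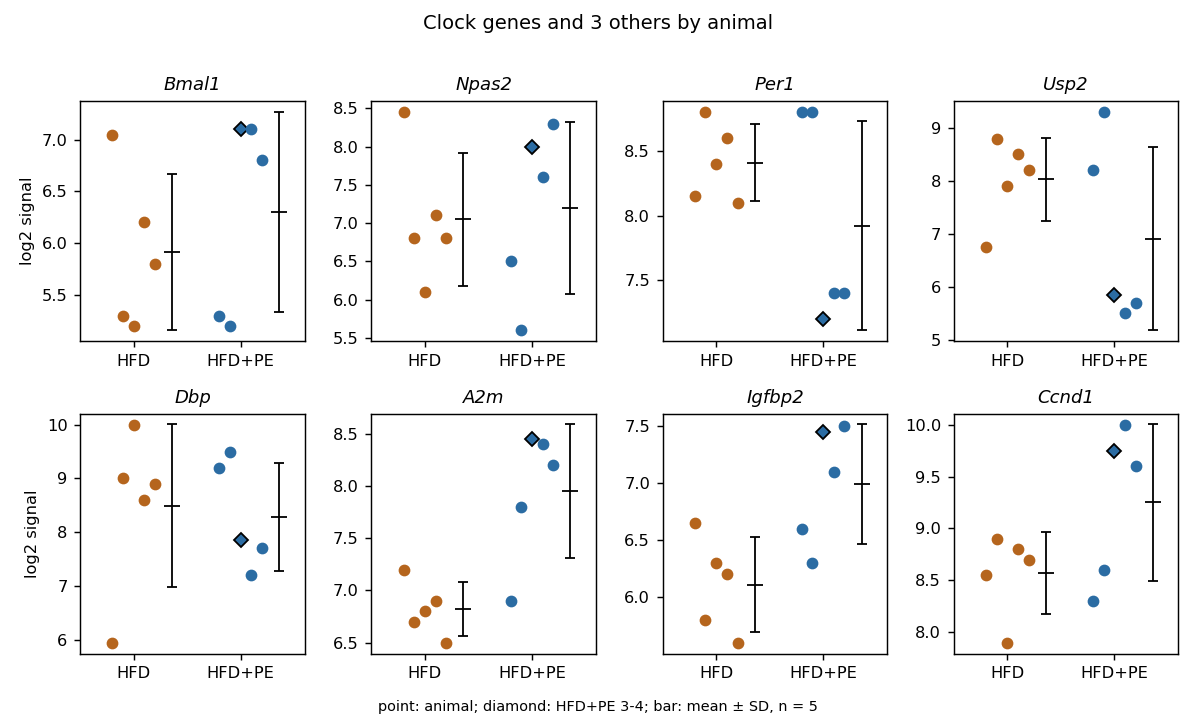
Log2 signal (y axis) of 5 clock genes and of A2m, Igfbp2 and Ccnd1 in HFD (brown) and HFD+PE (blue); each point is 1 animal, the diamond is HFD+PE 3-4, and the bars show the mean ± SD of 5 animals. In Bmal1, Per1, Usp2 and Ccnd1 the HFD+PE animals fall into 2 and 3, at 5.2 to 5.3 against 6.8 to 7.1 for Bmal1.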

How the data were processed

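Liver RNA of 12 arrays, 6 per group, was compared. The arrays had been processed by the authors with RMA in Affymetrix Expression Console (background correction, quantile normalization, summary of probes), per the submitters' processing notes, without versions. The deposited log2 values, for 31099 probe sets, were rounded to 0.1. Of these, 20826 named 1 gene symbol in the platform annotation, 436 several and 9780 none, and 57 were controls. The brightest probe set stood for each of 14217 genes, with no filter. Quantile normalization makes levels relative to the whole array.

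Differences were computed with limma 3.58.1 in R 4.3.3 (lmFit, eBayes, Benjamini-Hochberg adjustment over 14217 genes, two-sided, 5 against 5 animals) and the code was tested on simulated data. With no statement of separate cages or days, p-values measure the spread between these samples. Lists (1009 symbols, 897 measured) are described by counts and medians. The members and lists were chosen with earlier results of these data known. The rule for named genes took the 10 per direction with the smallest unadjusted p at a level of 6 or more, the 10 per direction with the largest difference and no overlap, and up to 5 members per list. Same-numbered replicates were not paired: their correlations ran from -0.198 to 0.110, and 0 of 6 correlated best with their own number. Promoters came from RefSeq GRCr8. Alternatives covered probe sets, dim genes, array pairs, normalization, weights, controls and single animals.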

Additional observations from a re-analysis of the deposited data

Results flagged for a closer look

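Of 260 sets of 5 animals examined (7 lists and 123 genes in each group), 23 held 1 animal far from the others by Dixon's criterion at 95%. Chance alone gives about 1 of 20 in independent sets. These sets share animals and genes, and some genes were named after their values were seen, so the count cannot be compared with that rate. HFD+PE 3-4 stood apart from the other HFD+PE animals in the lists of de novo lipogenesis (0.410) and cholesterol synthesis and uptake (0.900), and in Fasn (10.10), Acly (11.55), Pgd (8.45), Insig1 (11.15) and Serpina3m (11.40). Ttr (14.30) met the criterion too, but only because the other HFD+PE animals were tied at 1 rounding step of 0.1 below, so that this case says nothing. HFD+PE 1 stood apart in mitochondrial (-0.165) and peroxisomal (-0.085) fatty acid oxidation, Decr1 (11.70) and Cdc42bpb (7.5). HFD+PE 2 stood apart in Cyp1a1 (13.00), Cyp1a2 (13.70) and Ctsh (10.60), and HFD+PE 6 in Smagp (9.5) and Inmt (6.80). Among HFD animals, HFD 4 stood apart in Plin3 (7.40) and Cyp1b1 (5.20), HFD 6 in Hsp90b1 (11.90) and Inmt (5.10), and HFD 1-2 in S100a9 (5.45) and Per2 (6.75).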

How the results depend on the processing

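Alternatives were compared for the counts of genes, the spread, the list medians and the differences of named genes, not for promoter motifs or single animals; the 5 animals per group, their assignment to 10 animals and the rounding to 0.1 limit the precision. The count past an adjusted p of 0.05 stayed at 0 except for 1 (A2m) without the 2 arrays with high hybridization controls, and 0 to 2 when single animals were left out: A2m without HFD+PE 1, and Fasn and Serpina3m without HFD+PE 3-4. The count with an unadjusted p under 0.05 was 209 of 8265 genes at a level of 6 or more, which is 2.53% as in the main fit. It was 807 of 31042 with all probe sets (chosen after seeing the data). With 12 arrays as separate animals it was 667, and with the replicate block over 12 arrays 621. With the second number of the sample descriptions (1 for HFD 5 and HFD+PE 4, otherwise 3, of unstated meaning) as a covariate it was 676. When single animals were left out it ran from 290 without HFD+PE 5 to 572 without HFD 4, with 555 without HFD+PE 2. The replicate block left 0 genes past the adjusted threshold and changed no other call. The count without overlap was 12 of 8265 genes at a level of 6 or more and 44 of 31042 with all probe sets. It was 12 with 12 arrays, 54 after a further quantile normalization and 66 without the 2 arrays with high controls. When single animals were left out it was 40 to 92, and with fewer animals overlap is less likely by construction. Larger spread in HFD+PE was found for 3867 of the 8265 genes at a level of 6 or more. Counts at that level and with all probe sets refer to another number of genes or probe sets than the main fit. Of the list medians, aryl hydrocarbon receptor targets were at 0.32, lymphocyte markers at -0.18 and adipocyte and pancreas markers at 0.04 with members at a level of 6 or more, under both settings of that limit. Cytochromes P450 were at -0.05 with 12 arrays, with the second number and with the replicate block, and at -0.055 to 0.03 when single animals were left out. Cholangiocyte markers were at 0.042 with array weights and at -0.048 to 0.045 when single animals were left out, and NRF2 targets at 0.13 with the hybridization controls as a covariate. The cause of these shifts was not tested. Of the other list medians, 1060 under alternatives moved by less than the spread between animals.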
